A study of Mus musculus with 22 samples.

Results

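Long exposure to aerosolized methacholine was compared with long exposure to phosphate-buffered saline (PBS) in mouse lung, with 4 methacholine libraries against 3 PBS libraries, 7 of the 22 libraries of the series. Methacholine (MCh) activates muscarinic acetylcholine receptors and makes airway smooth muscle contract without any allergen. The libraries were chosen by their labelled aerosol and protocol, and no measured value entered the choice. All groups were BALB/c mice, and the treatment text describes an intraperitoneal sensitization at 49 days of age, a booster at 63 days and aerosol challenge from 70 days. The agent of the sensitization is not named there. In the long protocol each mouse received MCh, ovalbumin (OVA, an egg-white allergen) or PBS aerosol 3 times a week for 4 weeks, and the titles give 30 days. In the short protocol the same aerosols were given on 3 consecutive days. The 4 long OVA, 4 short MCh and 3 short PBS libraries were used to place the long MCh values. The titles call MCh and PBS mice normal and give 4 days for short MCh, and the design text speaks of trachea although every sample is labelled lung. The labels number the libraries of a group as biological replicates. The long MCh columns could be tied to their group and not to a single mouse, and are called libraries a to d.

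In a sensitized lung, inhaled allergen drives a type 2 response: T cells and innate lymphoid cells release interleukins 4, 5 and 13, eosinophils enter, and goblet cells fill with mucins. MCh skips that step and acts on smooth muscle, glands and epithelium through muscarinic receptors, so it is used to set constriction apart from allergy. Lung cells also carry the glucocorticoid receptor, encoded by Nr3c1, which the adrenal hormone corticosterone activates in mice. The receptor then enters the nucleus and induces genes such as Fkbp5, whose product is a chaperone partner that lowers the receptor's own affinity for hormone, and Tsc22d3, an anti-inflammatory leucine zipper protein. Corticosterone follows the time of day, and Per1 is both a clock gene and a target of the receptor.

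Expression was given as FPKM (fragments scaled to transcript length and library size) for 20938 genes, of which 15682 reached 0.1 FPKM in at least 3 libraries and were tested. Lung marker genes were abundant in all 7 libraries, with the club cell product Scgb1a1 at 33660 to 42670 FPKM and the surfactant gene Sftpc at 4592 to 6691 FPKM. MCh libraries a and c listed 34.3% and 33.8% of genes at 0, against 23.0% in MCh library b, 23.4% in MCh library d and 22.5% to 24.1% in the PBS libraries. Their implied depth was also lower, at 15.2 and 16.3 fragments for a 1-kilobase transcript at 1 FPKM, against 20.7 in MCh libraries b and d and 22.2 to 24.7 in PBS libraries. Over the groups, the share of genes at 0 did not separate MCh from PBS (exact permutation test, two-sided p = 0.286), and depth did as far as 4 against 3 libraries allow (exact permutation test, two-sided p = 0.0571, the smallest this design can give). The results below use all 4 MCh libraries, and many are also given without a and c.

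**Figure D1:**
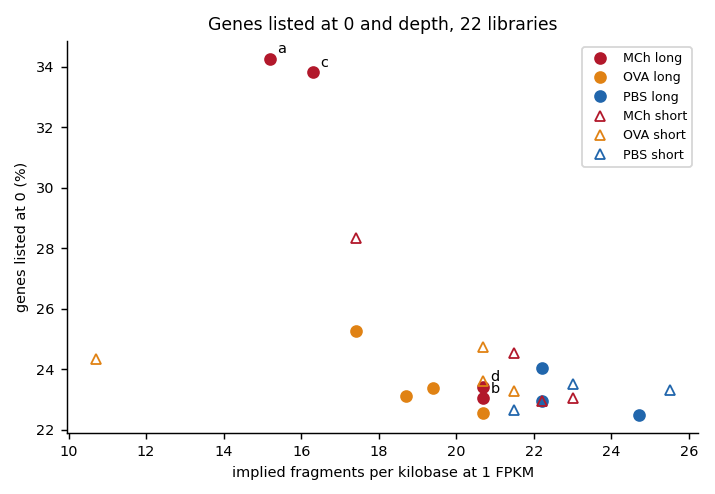
Share of genes listed at 0 (%) against the depth implied by the smallest FPKM steps, 1 point per library for all 22 libraries. MCh long libraries a and c stand at 34.3% and 33.8%, above every other library, while b and d lie near the PBS long libraries.

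Few genes differed between long MCh and long PBS lungs once all 15682 tests were taken into account. At an adjusted p under 0.05, 10 genes passed, 0.0638% of those tested; 9 rose (0.0574%) and 1 fell. The 9 that rose were Arl2bp, Fkbp5, Angptl4, Fam107a, Map3k6, Bcl2l1, F3, Bcar3 and Entpd1, and the 1 that fell was Rnase2a. In 407 genes (2.6%) all 4 MCh libraries lay above all 3 PBS libraries, and in 1648 genes (10.5%) all lay below, so separation of the groups alone was common, above all downward. The split of calls moved with the libraries used: 82 genes were higher and 699 lower without MCh library d, 2 higher and 6 lower without PBS library 3, and 74 higher and 75 lower when libraries were weighted by their fit to the group (array weights). The median log2 fold change over all tested genes was -0.14, with 4589 of the 15682 above 0, and -0.04 without MCh libraries a and c, with 6278 above 0. Of all tested genes, 2551 had an unadjusted p under 0.05.

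Fkbp5 (chromosome 17, 28399094 to 28517527, minus strand, mm10), the chaperone partner of the glucocorticoid receptor, had 133, 165, 179 and 103 FPKM in MCh libraries a to d, against 40.2, 34.3 and 38.1 FPKM in PBS libraries 1 to 3. The lowest MCh library, d, lay far above the highest PBS library, and the PBS libraries were close to each other. The log2 fold change was 1.90 ± 0.20 (SE; adjusted p = 1.17e-04). It was the one gene of the 10 that passed in each of the 7 fits that left out a single MCh or PBS library, with adjusted p up to 0.00282, and it passed without MCh libraries a and c (1.78 ± 0.23, adjusted p = 0.00888), where 2 genes (0.0128%) did. In a limma fit of these 2 groups alone no gene passed (990 at an unadjusted p under 0.05), and Fkbp5 had an adjusted p of 0.279.

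The regions upstream of a RefSeq start of Fkbp5 and of one of Fam107a are shown because the receptor binds pairs of short elements read as AGAACA on one strand and TGTTCT on the other, and because CACGTG is the E-box read by clock factors; capitals mark matches to either motif on either strand. Each is the stretch of 250 bases before the start, 5′ to 3′ in the direction of the gene, from RefSeq on GRCm38.p6: chr17:28486150-28486399 (minus strand) for Fkbp5 and chr14:8309780-8310029 (minus strand) for Fam107a.
Fkbp5: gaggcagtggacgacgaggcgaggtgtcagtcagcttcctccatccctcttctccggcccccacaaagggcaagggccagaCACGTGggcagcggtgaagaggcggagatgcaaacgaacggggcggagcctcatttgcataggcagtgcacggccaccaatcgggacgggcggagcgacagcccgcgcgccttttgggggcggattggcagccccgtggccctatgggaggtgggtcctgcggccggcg
Fam107a: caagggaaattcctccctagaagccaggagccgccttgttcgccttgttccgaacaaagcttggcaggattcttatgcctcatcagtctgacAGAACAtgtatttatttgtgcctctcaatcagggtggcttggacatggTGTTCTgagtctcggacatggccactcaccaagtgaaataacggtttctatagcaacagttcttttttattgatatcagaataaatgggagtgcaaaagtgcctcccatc
Of 14 such windows for 8 of the 9 genes that rose (Angptl4 had no entry), 2 held an element of the pair, or 14.3%. Over all 32851 windows the share was 16.1%. The 2 were overlapping windows of Fam107a, each with 2 elements. Single elements were counted, and those in the Fam107a window do not stand in the close pair that the receptor binds. The E-box was in 2 of the 14 (Fkbp5 and Bcar3), or 14.3%, against 6.02% of all windows. A match is only a run of letters, and a window without one says nothing of sites elsewhere: the known receptor sites of Fkbp5 lie in its introns, outside this window.

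Fam107a (chromosome 14), an actin-binding stress-response protein, stood at 46.8, 32.3, 29.2 and 25.9 FPKM in MCh libraries a to d and at 15.4, 10.3 and 10.95 FPKM in PBS libraries. Map3k6 (chromosome 4), a stress kinase gene, stood at 69.0, 46.0, 64.3 and 41.3 FPKM in MCh and at 29.3, 20.5 and 21.1 FPKM in PBS libraries. In both genes the lowest MCh library exceeded the highest PBS library. Their log2 fold changes were 1.40 ± 0.22 (adjusted p = 0.0144) and 1.19 ± 0.21 (adjusted p = 0.0375). Without MCh libraries a and c they were 1.23 ± 0.24 and 0.89 ± 0.23, of the same sign, and neither passed (adjusted p = 0.227 and 0.844).

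Angptl4 (chromosome 17), a secreted inhibitor of lipoprotein lipase induced by fasting, lipids, hypoxia and glucocorticoids, had 134, 59.5, 125 and 72.8 FPKM in MCh libraries and 43.2, 22.5 and 20.6 FPKM in PBS libraries. Here the 2 sparse libraries were the highest, and the log2 fold change of 1.75 ± 0.31 (adjusted p = 0.0375) became 1.26 ± 0.33 without them (adjusted p = 0.827). Arl2bp (chromosome 8), a binding partner of the small GTPase ARL2, had 26.4, 20.2, 24.8 and 12.9 FPKM in MCh libraries against 4.55, 4.54 and 4.43 FPKM in PBS libraries. The PBS libraries were nearly level, and the MCh libraries spread more widely, all above them (2.06 ± 0.32, adjusted p = 0.0144).

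Bcl2l1 (chromosome 2), which encodes the survival protein BCL-XL, had 198, 162, 207 and 131 FPKM in MCh libraries and 90.2, 82.6 and 76.2 FPKM in PBS libraries (1.05 ± 0.16, adjusted p = 0.0144). F3, tissue factor and the starter of the extrinsic clotting cascade, had 57.6, 45.9, 80.7 and 42.1 FPKM in MCh libraries and 27.1, 25.6 and 33.0 FPKM in PBS libraries (0.93 ± 0.17, adjusted p = 0.0414). Both genes kept their groups apart, with MCh libraries a and c the highest. Entpd1, the ectoenzyme CD39 that breaks down extracellular ATP, varied little within the groups, with 102, 100.3, 103 and 91.0 FPKM in MCh libraries and 74.2, 63.2 and 65.4 FPKM in PBS libraries (0.55 ± 0.09, adjusted p = 0.0265). Bcar3, an adaptor of integrin and SRC signalling, averaged 36.3 ± 5.7 FPKM in MCh and 22.7 ± 1.1 FPKM in PBS lungs (SD, n = 4 and 3; 0.65 ± 0.12, adjusted p = 0.0375). No call other than that of Fkbp5 held when PBS library 2 was left out, when MCh library c was left out, or without MCh libraries a and c. In that last fit the log2 fold change was 1.74 for Arl2bp, 0.81 for Bcl2l1, 0.65 for Bcar3, 0.62 for F3 and 0.50 for Entpd1. Of the 10 calls, 3 held without MCh library a, 9 without b, 10 without d, 6 without PBS library 1 and 2 without PBS library 3. With array weights, 149 genes passed (0.95%), among them 9 of the 10, Angptl4 being the one lost (adjusted p = 0.0561). The weights were 0.066 for MCh library a, 0.088 for c, 2.37 for b and 1.41 for d. For long MCh the weighted fit thus rests mostly on libraries b and d. When a and c were left out, only Fkbp5 and Gxylt1 passed. The other genes said below to pass with array weights did not pass in that fit.

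**Figure D2:**
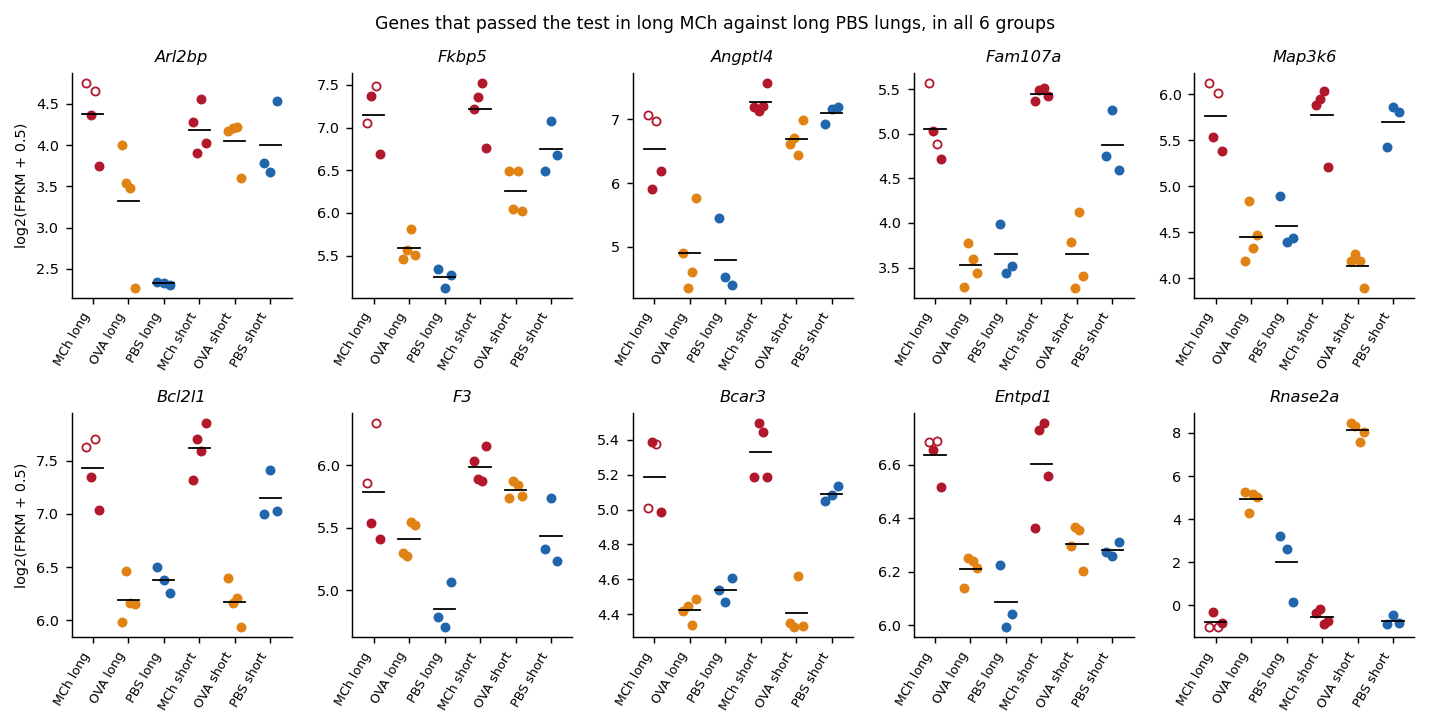
The 10 genes that passed, as log2(FPKM + 0.5) per library in all 6 groups; points are libraries, open points the sparse long MCh libraries a and c, and bars group means. For each of the 9 genes that rose, long PBS lies below long MCh and below short PBS.

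The level in long PBS lungs was itself low beside the other control group. In all 9 genes that rose, every short PBS library exceeded every long PBS library, and in 8 of them the short PBS range met the long MCh range. Fkbp5 ran from 103 to 179 FPKM in long MCh and from 34.3 to 40.2 FPKM in long PBS lungs, against 108 to 183 FPKM in short MCh and 89.3 to 134 FPKM in short PBS lungs. Angptl4 averaged 97.6 ± 36.9 FPKM in long MCh and 28.7 ± 12.6 FPKM in long PBS lungs, against 155 ± 22.5 FPKM in short MCh and 137 ± 13.5 FPKM in short PBS lungs (SD). The share of all tested genes with this order of the PBS groups was not counted. The 9 genes were chosen by a test that uses the long PBS values, so their order is no separate result. These levels are a description across protocols, and what sets the 2 PBS groups apart was not tested.

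The change in the MCh effect from the short to the long protocol was tested as an interaction, and no gene passed (0%; limma, with 989 genes at an unadjusted p under 0.05). The effect on Fkbp5 was larger in the long protocol by 1.44 ± 0.28 on the log2 scale (adjusted p = 0.415), and that on Angptl4 by 1.57 ± 0.44 (adjusted p = 0.762). For Retnla, a small secreted protein of macrophages and airway epithelium under type 2 cytokines, the difference of effects was -5.55 ± 0.94 (adjusted p = 0.162). The interaction carries the error of 4 groups, and a p that misses the threshold does not show equal effects.

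Among 20 glucocorticoid-responsive genes, 3 rose (Fkbp5, Angptl4 and Map3k6) and none fell, beside 0.0638% of all tested genes. The fold change was above 0 in 19 of the 20, with a median of 0.72 on the log2 scale, against -0.14 over all tested genes, and 0.68 without MCh libraries a and c. In 10 of the 20 all MCh libraries lay above all PBS libraries, beside 2.6% of all tested genes. Over the other fits the median stayed between 0.48 and 0.91, and the genes called in this list ran from 0 to 5. Without MCh libraries a and c, 1 was called. The list was chosen with earlier results of these data known, so its count describes these libraries.

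Tsc22d3 had 603, 456, 448 and 390 FPKM in MCh libraries and 314, 128 and 187 FPKM in PBS libraries, with no overlap (1.26 ± 0.30, adjusted p = 0.172, not passed). Zbtb16, a zinc finger repressor induced by glucocorticoids, had 38.9, 96.9, 35.8 and 82.6 FPKM in MCh libraries and 29.2, 20.8 and 21.0 FPKM in PBS libraries; MCh libraries b and d were the high ones, and the fold change was 1.29 ± 0.55 with a and c and 1.91 ± 0.64 without them. Mt2, a metal-binding metallothionein, had 27.6, 37.0, 52.3 and 51.1 FPKM in MCh libraries and 10.9, 16.4 and 15.8 FPKM in PBS libraries (1.49 ± 0.40, adjusted p = 0.213). These 3 genes separated the groups and did not pass the test, and with array weights Zbtb16 and Mt2 did (adjusted p = 0.0412 for each). Nr3c1, the receptor gene itself, had 19.2, 103, 55.2 and 98.1 FPKM in MCh libraries and 111, 102 and 118 FPKM in PBS libraries; it was low in the sparse libraries a and c alone, and its fold change of -0.94 ± 0.37 (adjusted p = 0.252) was -0.13 without them. Other known targets showed less: Sgk1, a kinase of salt handling, differed by 0.12 ± 0.15, and Tat, the liver enzyme tyrosine aminotransferase, reached 0.784 FPKM at most.

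Clock genes were measured beside these because the labels give no hour of collection. Of 19 clock genes none passed, 13 had a fold change above 0, and the median was 0.45. For several of them the 3 PBS libraries lay as far apart as the groups. Dbp, an output gene with one of the steepest daily rhythms, had 15.5, 22.9, 26.1 and 14.6 FPKM in MCh libraries and 4.87, 0.874 and 30.4 FPKM in PBS libraries. Arntl, the partner of CLOCK that peaks in antiphase, had 2.77, 0.691, 0.0179 and 2.27 FPKM in MCh libraries and 3.85, 6.72 and 1.31 FPKM in PBS libraries. PBS library 3 thus had the highest Dbp with the lowest Arntl of its group, and PBS library 2 the reverse. Per1 had 26.9, 23.4, 35.2 and 21.9 FPKM in MCh libraries and 21.0, 5.72 and 15.2 FPKM in PBS libraries (1.07 ± 0.38, adjusted p = 0.225). Tsc22d3 and Fkbp5 took the same order over the PBS libraries as Per1, highest in library 1 and lowest in library 2, Fkbp5 within 34.3 to 40.2 FPKM. The part of collection time in the glucocorticoid-responsive values was not tested. Without PBS library 2 the median of the glucocorticoid-responsive genes was 0.50, with 1 called, and that of the clock genes 0.19.

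**Figure D3:**
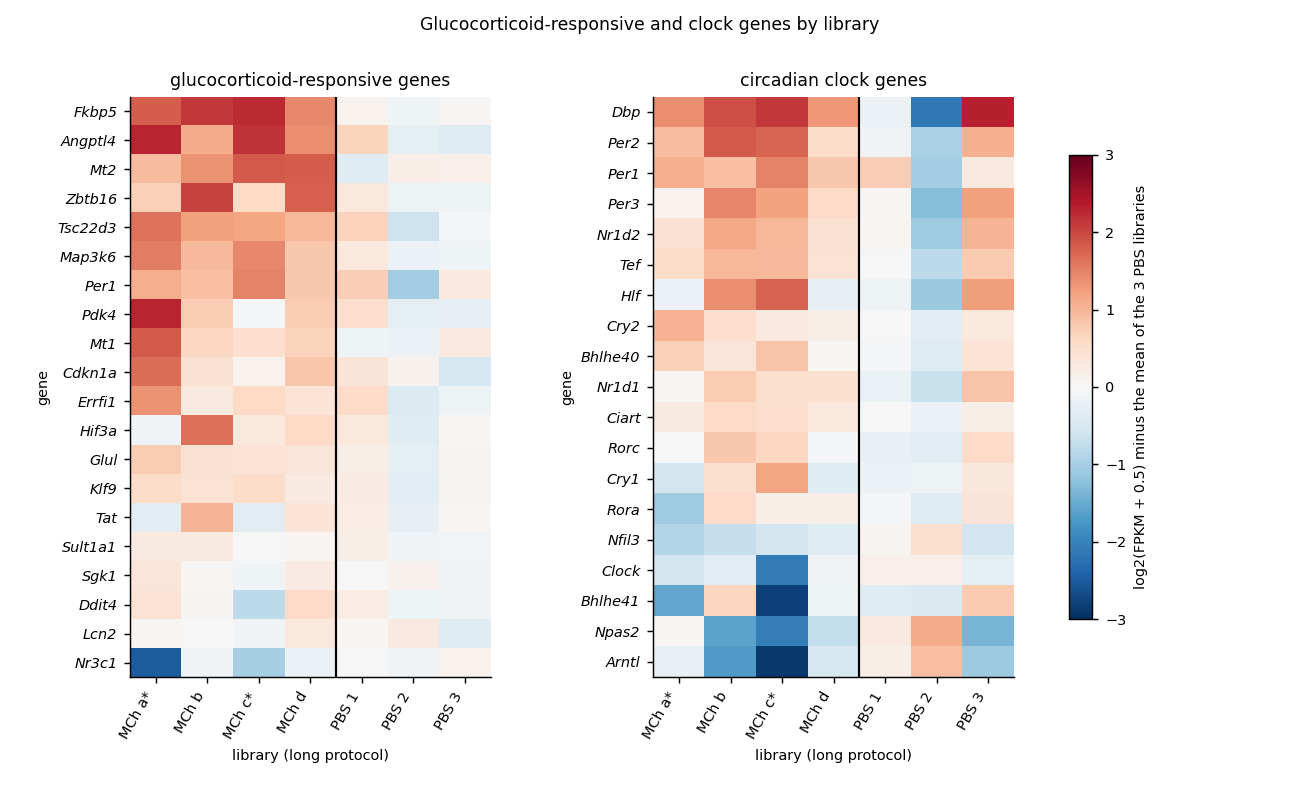
Difference of log2(FPKM + 0.5) from the mean of the 3 PBS libraries, 1 column per long-protocol library (asterisks mark sparse MCh libraries a and c) and 1 row per gene. In the glucocorticoid-responsive panel the MCh columns are mostly above 0 and PBS columns near 0, while in the clock panel PBS libraries 2 and 3 lie on opposite sides of 0 for many genes.

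Of 26 immediate early genes, which respond to stimulation within minutes to hours, none passed and 6 had all MCh above all PBS libraries, beside 2.6% of all tested genes. Nr4a3, an orphan nuclear receptor, had 2.46, 2.84, 3.87 and 2.96 FPKM in MCh libraries and 0.788, 0.975 and 0.847 FPKM in PBS libraries (1.35 ± 0.27, adjusted p = 0.0765). Its fold change without MCh libraries a and c was 1.31. Maff (0.81 ± 0.17, adjusted p = 0.135), Klf4 (0.65 ± 0.15, adjusted p = 0.147) and Klf2 (0.59 ± 0.15, adjusted p = 0.181) also had all MCh above all PBS libraries. With array weights Nr4a3, Maff and Klf4 passed (adjusted p = 5.11e-04, 0.0151 and 0.0265), and none of these passed without MCh libraries a and c. The fold change was above 0 in 13 of the 26, with a median of 0.02, and in 16 without MCh libraries a and c, with a median of 0.15. Fos and Egr2, members of the same class, lay on opposite sides, at 0.74 ± 0.33 and -0.74 ± 0.33.

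Inducible heat shock genes had large fold changes that did not pass. Hspa1b, an inducible HSP70 chaperone, had 46.0, 93.1, 43.9 and 19.9 FPKM in MCh libraries and 11.7, 8.88 and 11.2 FPKM in PBS libraries (2.02 ± 0.54, adjusted p = 0.213), and its near-identical copy Hspa1a moved with it (2.03 ± 0.57), so reads of the 2 genes may be shared. MCh library b was the highest and library d the lowest of its group, still above the PBS libraries. Short PBS lungs averaged 149 ± 91.5 FPKM of Hspa1b, above either long group. None of the 20 heat shock genes passed, 12 had a fold change above 0, and the median was 0.10; without MCh libraries a and c 16 did, and the median was 0.18. With array weights Hspa1b and Hspa1a passed (adjusted p = 0.0311 and 0.0350).

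The genes that MCh acts through and the contractile genes showed no change that passed. Of 16 genes of muscarinic and acetylcholine handling, 10 were tested and none passed; Chrm3, the receptor that mediates smooth muscle contraction, had 1.90, 1.10, 0.0442 and 0.842 FPKM in MCh libraries and 0.798, 0.956 and 0.959 FPKM in PBS libraries. Chrm2, the receptor of nerve endings and muscle, had 0, 1.25, 0.0301 and 1.09 FPKM in MCh libraries and 0.585, 0.740 and 1.28 FPKM in PBS libraries. The lowest values of both receptors were those of sparse libraries, and so was the highest value of Chrm3, in library a. The median of the 10 genes was -0.23 with all 4 MCh libraries and 0.03 without MCh libraries a and c. Chat, the acetylcholine-synthesizing enzyme, was listed at 0 in all 7 libraries.

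None of 20 smooth muscle contractile genes passed, 12 had a fold change above 0, and the median was 0.04. Acta2, smooth muscle actin, had 98.4, 99.2, 105 and 128 FPKM in MCh libraries and 98.2, 125.5 and 119 FPKM in PBS libraries, which overlapped (-0.09 ± 0.13). Tagln, the actin-binding protein transgelin, had 255, 184, 173 and 231 FPKM in MCh libraries and 157, 164 and 166 FPKM in PBS libraries. It separated the groups with a fold change of 0.36 ± 0.13 (adjusted p = 0.234), and Des, desmin, did so with 0.33 ± 0.12 (adjusted p = 0.239). Desmin is also made by heart muscle, and the summed FPKM of 16 cardiac genes ran from 78.8 to 512 in MCh and from 66.7 to 337 in PBS libraries, and the part of these in Des was not tested. Of 15 regulators of G protein signalling, which end the signal of receptors such as the muscarinic ones, none passed, 14 had a fold change under 0 (11 without MCh libraries a and c) and the median was -0.32 (-0.21 without them), with Rgs3 the lowest in p (-0.82 ± 0.21, and -0.33 without MCh libraries a and c).

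Among 19 mechanosensing genes and YAP targets, which respond to stretch and stiffness, F3 rose, beside 0.0574% of all tested genes, and none fell. Without MCh libraries a and c no gene of this list passed. Ccn2, connective tissue growth factor, had 136, 113, 92.1 and 147 FPKM in MCh libraries and 80.8, 66.2 and 71.2 FPKM in PBS libraries (0.72 ± 0.17, adjusted p = 0.161). Edn1, the vasoconstrictor and bronchoconstrictor endothelin-1, had 65.1, 58.0, 60.2 and 63.7 FPKM in MCh libraries and 34.0, 25.1 and 34.9 FPKM in PBS libraries (0.98 ± 0.24, adjusted p = 0.177). Both separated the groups and did not pass, and with array weights both did (adjusted p = 0.0106 and 0.0208). The median of the list was 0.03. Of 19 collagen genes and 21 of TGF-beta signalling none passed; Col1a1 had 13.0, 15.4, 13.6 and 22.5 FPKM in MCh libraries and 25.0, 29.6 and 16.5 FPKM in PBS libraries (-0.54 ± 0.34), which overlapped, and Tgfb1 differed by -0.22 ± 0.17.

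**Figure D4:**
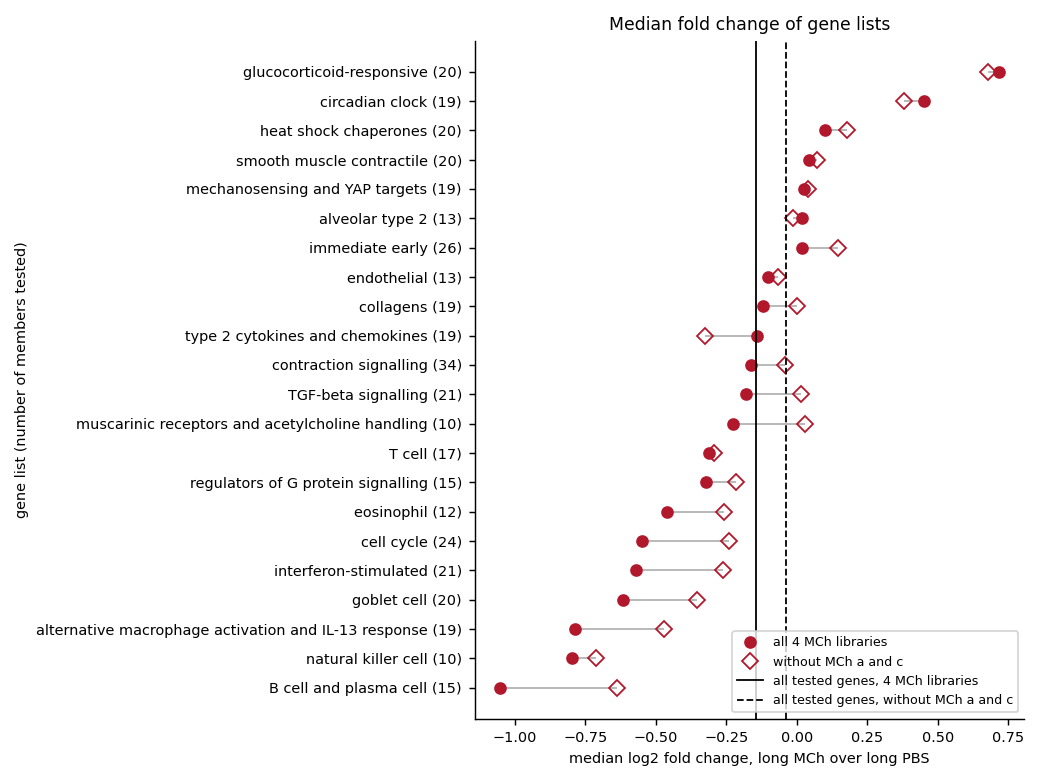
Median log2 fold change, long MCh over long PBS, of 22 gene lists (number of tested members in brackets); filled circles use all 4 MCh libraries, open diamonds leave out a and c, and vertical lines give the median of all tested genes. Glucocorticoid-responsive genes lie highest at 0.72, and B cell and plasma cell genes lowest at -1.06.

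The only gene that fell was Rnase2a (chromosome 14, 51255262 to 51256112, minus strand), a ribonuclease of the mouse eosinophil-associated family, whose close copies may share reads. It had 0, 0.309, 0 and 0.0728 FPKM in MCh libraries and 8.72, 5.66 and 0.612 FPKM in PBS libraries. The MCh libraries were at or near 0, and PBS library 3 lay far below PBS libraries 1 and 2. The log2 fold change was -2.77 ± 0.47 (adjusted p = 0.0275), on a scale where 0.5 is added to each FPKM, which limits it near 0. With 1 added it was -2.11 and did not pass (adjusted p = 0.0575), and with 0.1 added it was -4.34 (adjusted p = 0.0119). In the short protocol the gene averaged 0.209 ± 0.159 FPKM in MCh and 0.118 ± 0.096 FPKM in PBS lungs (SD). Among the MCh and PBS groups the high values were thus those of long PBS. Long OVA lungs stood above them, at 18.7 to 37.9 FPKM. Of 12 eosinophil markers Rnase2a alone fell, the 1 gene called lower among all 15682 tested, and none rose. The median of the markers was -0.46 (-0.26 without MCh libraries a and c), beside -0.14 and -0.04 over all tested genes. Their summed FPKM was 30.8 to 59.2 in MCh and 66.6 to 88.6 in PBS libraries.

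Genes of the type 2 response and of mucus were mostly lower in MCh than in PBS lungs, and none of them other than Rnase2a passed. With array weights Retnla, Cd209e and Pdcd1lg2 passed among the alternative macrophage genes and Ccl11 and Ccl8 among the type 2 chemokines, all lower in MCh (adjusted p of 0.0231 to 0.0421). Retnla had 41.2, 111, 63.0 and 103 FPKM in MCh libraries and 1430, 1647 and 224 FPKM in PBS libraries (-3.44 ± 0.67, adjusted p = 0.0658, and -2.91 without MCh libraries a and c). Clca1, a goblet cell product that drives mucus genes, had 0.0681, 2.20, 2.71 and 0.112 FPKM in MCh libraries and 67.4, 73.3 and 9.83 FPKM in PBS libraries (-4.82 ± 1.40, adjusted p = 0.215). In both, PBS library 3 was the low one and still above every MCh library. Ccl11, the eosinophil attractant eotaxin-1, had 1.34, 4.74, 0 and 3.19 FPKM in MCh libraries and 10.7, 13.7 and 8.38 FPKM in PBS libraries (-2.45 ± 0.56, adjusted p = 0.154). Without the sparse libraries the fold change of Ccl11 was -1.35. In short PBS libraries 1 to 3, Retnla had 128, 46.5 and 19.9 FPKM and Clca1 had 7.85, 1.435 and 0.205 FPKM. For these genes every short PBS library thus lay below every long PBS library. Ccl11 did not follow this order, with 11.3, 12.9 and 5.29 FPKM in short PBS libraries. What sets the PBS groups apart was not tested.

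Of 19 genes that mark alternatively activated macrophages or answer IL-13, none passed, 18 had a fold change under 0 and the median was -0.79 (-0.47 without MCh libraries a and c). In 8 of them all MCh libraries lay below all PBS libraries, beside 10.5% of all tested genes. Of 20 goblet cell genes none passed, 19 had a fold change under 0, and 6 had all MCh below all PBS libraries; the median was -0.62 (-0.35 without a and c). The gel-forming mucin Muc5b had 16.5, 85.6, 76.7 and 39.3 FPKM in MCh libraries and 107, 129 and 135 FPKM in PBS libraries (-1.42 ± 0.81, adjusted p = 0.379). Muc5ac, the mucin of goblet cell metaplasia, stood at 0 to 0.252 FPKM in MCh and at 0.418 to 1.55 FPKM in PBS libraries. The median of 19 type 2 cytokine and chemokine genes was -0.14, the same as that of all tested genes, and -0.33 without MCh libraries a and c, against -0.04. Il13 itself was listed at 0 in all 4 MCh libraries and in PBS library 3.

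Lymphocyte genes lay lower in MCh lungs without passing. In bulk lung RNA fewer cells of a type and less RNA per cell cannot be told apart. Of 15 B cell and plasma cell genes none passed, 14 had a fold change under 0, and the median was -1.06 with all libraries and -0.64 without a and c, beside -0.14 and -0.04 over all tested genes. Cd79a, a signalling chain of the B cell receptor, had 7.21, 7.61, 9.19 and 8.27 FPKM in MCh libraries and 11.3, 22.3 and 20.3 FPKM in PBS libraries (-1.05 ± 0.58, adjusted p = 0.364). Ms4a1, which encodes CD20, had 5.09, 5.86, 2.99 and 5.69 FPKM in MCh libraries and 6.89, 14.1 and 14.0 FPKM in PBS libraries. PBS library 1 was the lowest of its group in both genes, and the groups did not overlap. In short PBS lungs Cd79a averaged 21.6 ± 23.7 FPKM, a spread wider than the difference seen here.

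All 10 tested natural killer cell genes had a fold change under 0, none passed, and the median was -0.80, or -0.71 without MCh libraries a and c. Klre1, a killer cell lectin-like receptor, had 0.0225, 0.287, 0 and 0.470 FPKM in MCh libraries and 1.53, 0.753 and 0.816 FPKM in PBS libraries (-1.16 ± 0.26, adjusted p = 0.143). Prf1, the pore protein perforin, had 4.19, 1.90, 0.374 and 5.83 FPKM in MCh libraries and 10.2, 5.08 and 6.93 FPKM in PBS libraries, which overlapped (-1.44 ± 0.47, adjusted p = 0.214). Ccr2, the chemokine receptor of recruited monocytes, had the smallest adjusted p among the monocyte, T, B and natural killer cell genes, with 4.84, 6.46, 8.29 and 7.56 FPKM in MCh libraries and 14.8, 11.8 and 11.04 FPKM in PBS libraries. Its fold change was -0.85 ± 0.16 (adjusted p = 0.0574), and -0.79 ± 0.15 without MCh libraries a and c (adjusted p = 0.227). None of 17 T cell, 21 interferon-stimulated and 24 cell cycle genes passed, with 14, 21 and 23 fold changes under 0, where 4589 of all 15682 tested genes were above 0. After quantile normalization 10 T cell, 20 interferon-stimulated and 17 cell cycle genes were under 0. The median of the interferon-stimulated genes was -0.57, and -0.26 without MCh libraries a and c. For the cell cycle genes the median of -0.55 was -0.24 without the sparse libraries: Bub1b, a mitotic checkpoint kinase, had 0.0942, 1.76, 0.0289 and 1.40 FPKM in MCh libraries a to d, low in a and c, against 3.22, 3.01 and 1.62 FPKM in PBS libraries.

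**Figure D5:**
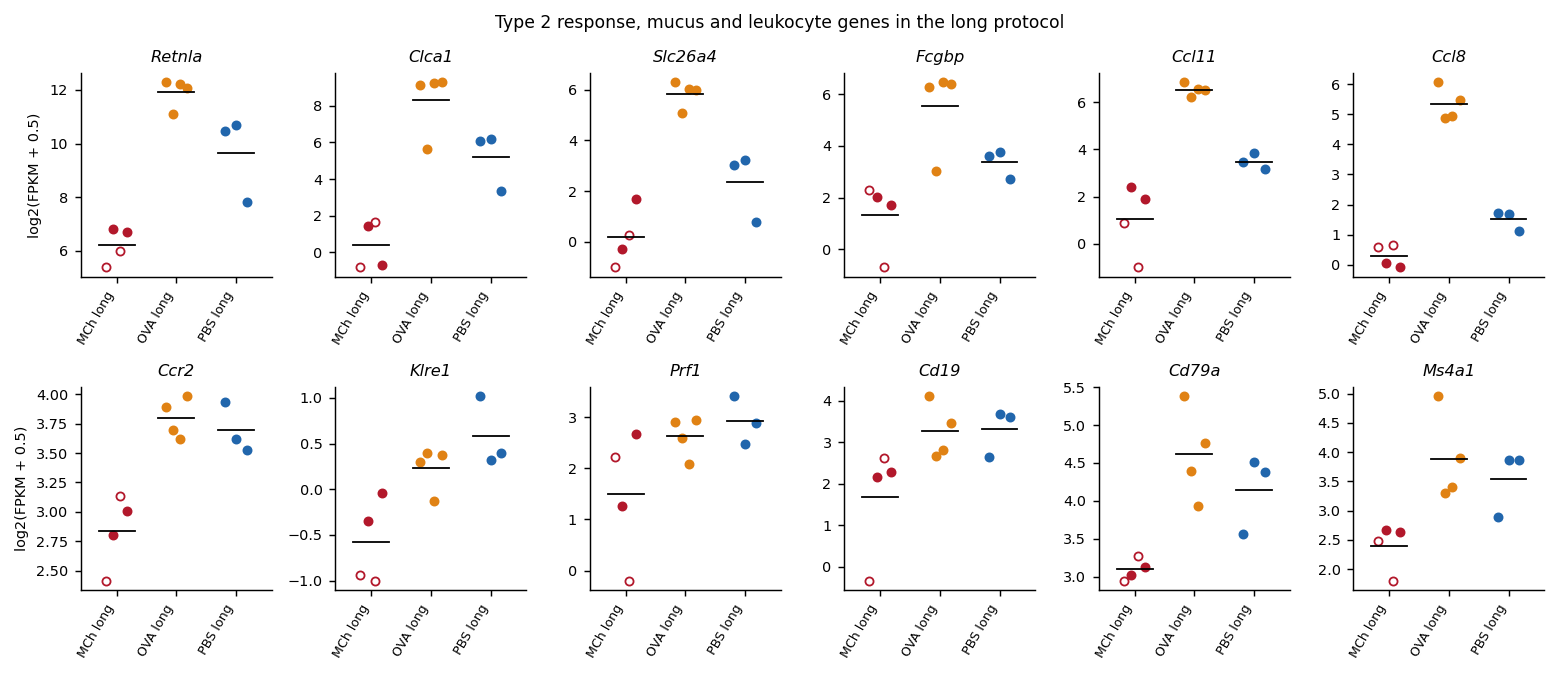
Type 2, mucus and leukocyte genes as log2(FPKM + 0.5) in long MCh, long OVA and long PBS libraries; open points are sparse MCh libraries a and c, bars are group means. The means of Retnla, Clca1 and Ccl11 are lowest in MCh and highest in OVA, with PBS between.

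Long MCh was also set directly against long OVA, a difference into which no PBS level enters. The PBS libraries still shared in the estimate of each gene's spread, and so in its SE and p. Here 206 genes were higher in MCh (1.31% of those tested) and 745 lower (4.75%). The split depended on scaling, with 352 higher among 973 genes after median-of-ratios scaling, 447 among 899 after quantile normalization and 704 among 1367 with each library's trend along transcript length removed. Without MCh libraries a and c, 353 genes passed, 63 of them higher, and 307 of the 951 passed in both fits. The long MCh libraries are those of the PBS comparison, so both comparisons share them.

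Fkbp5 averaged 145 ± 34.1 FPKM in MCh and 47.8 ± 5.39 FPKM in OVA lungs (SD, n = 4 each), a log2 difference of 1.56 ± 0.18 (adjusted p = 2.05e-05). Bcl2l1 (1.24 ± 0.15, adjusted p = 3.79e-05), Map3k6 (1.31 ± 0.20, adjusted p = 3.57e-04) and Edn1 (1.03 ± 0.22, adjusted p = 0.00893) were also higher in MCh. Of the 20 glucocorticoid-responsive genes 8 were higher in MCh, beside 1.31% of all tested genes. In this list 1 was lower, the antimicrobial siderophore-binding protein Lcn2 (-1.60), beside 4.75% of all tested genes. Over the other fits the genes called in this list ran from 3 to 13. F3 did not pass here (0.38 ± 0.16, adjusted p = 0.149), nor did Mt2 (-0.28 ± 0.37) or Hspa1b (-0.19 ± 0.50).

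The allergen genes made up the other side. Retnla averaged 79.6 ± 33.1 FPKM in MCh and 4067 ± 1282 FPKM in OVA lungs (-5.70 ± 0.62, adjusted p = 7.69e-06), and Clca1 averaged 1.27 ± 1.38 FPKM in MCh and 460 ± 275 FPKM in OVA lungs (-7.92 ± 1.29, adjusted p = 7.33e-04). Jchain, the joining chain of secreted IgA and IgM, averaged 24.4 ± 8.90 FPKM in MCh and 1079 ± 482 FPKM in OVA lungs. Of the lists, 16 of 19 alternative macrophage, 14 of 19 type 2 cytokine and chemokine, 11 of 20 goblet cell and 13 of 20 unfolded protein response genes were lower in MCh than in OVA, beside 4.75% of all tested genes, and none of these lists had a gene higher. Over the other fits the genes called in these lists ran from 12 to 18, from 8 to 16, from 4 to 16 and from 10 to 15. Among the last, Hsp90b1, an endoplasmic reticulum chaperone, differed by -0.92 ± 0.15 (adjusted p = 9.12e-04). Il33, an epithelial alarmin, stood at 113, 69.1, 68.0 and 73.3 FPKM in MCh libraries and averaged 258 FPKM in OVA lungs (-1.69 ± 0.16, adjusted p = 1.54e-06). The smooth muscle genes Acta2 (-0.56 ± 0.12, adjusted p = 0.00901) and Myl9 (-0.40 ± 0.10, adjusted p = 0.0232) were lower in MCh than in OVA; against PBS they differed by -0.09 ± 0.13 and -0.02 ± 0.11.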

How the data were processed

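Lung RNA of 22 mice was measured by RNA-seq, and the deposited tables hold FPKM of 20938 genes and 36844 RefSeq transcripts. Per the labels' protocols, extraction used RNeasy columns with DNase treatment and library preparation used a stranded total RNA kit (TruSeq). The submitters' processing notes name STAR, Trim Galore, DESeq2 and the build mm10; the program that gave FPKM is not given in the sources used here. The gene FPKM of genes with 1 transcript, such as Fkbp5 and Angptl4, differs from the transcript FPKM by a factor of its own for each gene, so levels are compared between libraries and not between genes. No pair of libraries was identical. No read counts were used, and depth was read from the smallest FPKM steps, so intervals and floors cannot be given.

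Genes with at least 0.1 FPKM in at least 3 libraries were taken to log2(FPKM + 0.5), which understates folds of genes near 0. limma 3.58.1 in R 4.3.3 fitted 1 coefficient for each of 6 groups (lmFit, contrasts.fit, eBayes with trend), and p (two-sided) was adjusted by Benjamini-Hochberg across the 15682 genes of each comparison; calls have an adjusted p under 0.05. Exact permutation tests used SciPy 1.17.1. The fits were run on simulated data in which each gene had the same spread in all libraries. No simulated library was sparse, so that run says nothing of the effect of MCh libraries a and c. Positions come from the GENCODE annotation of mm10.

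The comparison and 54 gene lists were chosen with earlier results of these data known; 845 of 887 list members matched. Genes are named by rule: up to 10 called a direction, filled to 10 by the smallest p without overlap; up to 4 per list by p; up to 8 a direction called in the other comparisons or without MCh libraries a and c; and 18 key genes. Others were named after their values were seen. Lists are given as counts and medians. Alternatives were pseudocounts of 0.1 and 1, other filters, scalings and fits, sums of transcripts, a limit of 2-fold and leaving out libraries.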

Additional observations from a re-analysis of the deposited data

Results flagged for a closer look

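Of 42 sets of 4 long MCh values examined for a library standing apart, 1 had one: Il33, the epithelial alarmin, had 113.3 FPKM in MCh library a, against 69.1, 68.0 and 73.3 FPKM in MCh libraries b, c and d. The gap to the nearest library was 0.852 of the range of the group, above Dixon's 95% critical value for 4 values. Chance alone gives about 1 such set in 20. The PBS libraries had 72.8, 81.1 and 65.7 FPKM, all below MCh library a, and library a is one of the 2 with the most genes at 0; its part in this value was not tested.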

How the results depend on the processing

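Against PBS, the 10 calls became 149 with array weights, 31 with the length trend removed, 0 in a fit of the 2 groups alone (990 at an unadjusted p under 0.05) and 2 without MCh libraries a and c, and ran from 1 to 781 when 1 library was left out (781 without MCh library d, 1 without MCh library c or PBS library 2). Under pseudocounts, filters, median-of-ratios and quantile scaling, robust eBayes and sums of transcripts the count stayed between 8 and 15. The interaction had 0 calls, 1 with array weights, and 0 to 6 when 1 library was left out, the 6 without PBS library 3. Against OVA, the 951 calls became 2150 with array weights, 292 in a fit of the 2 groups alone, 353 without MCh libraries a and c and 467 with a limit of 2-fold, and ran from 413 to 2403 when 1 library was left out (2049 without MCh library b, 588 without c and 2403 without d; 413, 626 and 533 without OVA libraries a, c and d). No named gene that passed changed sign under any of these fits. The causes were not tested. No paired analysis was possible because the long MCh and long OVA columns carry no number that ties them to a numbered mouse. Depth limits genes near or under 1 FPKM most, and in MCh libraries a and c a 0 can stand for a low level. Short OVA library 1 had the lowest implied depth of all 22 libraries (10.7) and listed 24.3% of genes at 0. The source of the zeros in MCh libraries a and c was not tested.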

Other observations

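Several genes outside the lists separated the groups downward without passing. Grb14, an adaptor that dampens insulin receptor signalling, had 9.77, 11.99, 9.19 and 14.0 FPKM in MCh libraries and 18.7, 17.4 and 17.95 FPKM in PBS libraries (-0.68 ± 0.14, adjusted p = 0.0765). Angpt2, the antagonist of the endothelial receptor TEK, had 6.68, 6.06, 5.36 and 8.26 FPKM in MCh libraries and 15.9, 11.4 and 11.3 FPKM in PBS libraries (-0.91 ± 0.20, adjusted p = 0.147). Lbh, a transcription cofactor, averaged 81.4 ± 16.7 FPKM in MCh and 129 ± 16.4 FPKM in PBS lungs (SD; -0.67 ± 0.14, adjusted p = 0.135). With array weights all 3 passed (adjusted p = 0.0265, 0.0231 and 0.0177).

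Gxylt1, a xylosyltransferase gene of Notch glycosylation, passed without MCh libraries a and c, together with Fkbp5 (2 genes, 0.0128% of those tested), and with array weights (adjusted p = 1.997e-06), and not with all 4 MCh libraries at equal weight. It had 36.2, 14.8, 53.0 and 11.6 FPKM in MCh libraries and 47.2, 47.9 and 51.8 FPKM in PBS libraries, so libraries b and d were low and a and c were not. The fold change was -1.86 ± 0.29 without a and c (adjusted p = 0.0457) and -1.01 ± 0.38 with all 4 MCh libraries (adjusted p = 0.239). Short MCh libraries also took separate levels, from 16.9 to 48.5 FPKM, against 38.1 to 45.3 FPKM in short PBS libraries.

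On the upward side, Herpud1, a stress-induced gene of endoplasmic reticulum protein disposal, had 170, 152, 132 and 132 FPKM in MCh libraries and 103, 82.7 and 111 FPKM in PBS libraries (0.56 ± 0.14, adjusted p = 0.187). Cidec, a lipid droplet protein, did not pass against PBS and is named for the comparison with OVA. It averaged 2.35 ± 1.202 FPKM in MCh and 0.492 ± 0.237 FPKM in OVA lungs and was higher in MCh than in OVA (adjusted p = 0.00162).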
